A study of Mus musculus with 4 samples.

Results

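The chromatin around 6 genes of the pluripotency network was examined for SSRP1 in mouse embryonic stem cells. The genes were Zfp42, Lncenc1, Pou5f1, Nanog, Sox2 and Klf4. Each gene was represented by a fixed interval of the mm9 genome, and its members were all ChIP-seq peaks overlapping that interval by at least 1 bp. These intervals held 51 of the 5011 peaks of replicate 1 (1.02%) and 38 of the 2342 peaks of replicate 2 (1.62%). The genes were chosen with results on these same peaks known, Zfp42 and Lncenc1 foremost. Peak numbers, covered lengths, widths, folds and overlaps below are therefore descriptions, and no test was made on them.

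The cells were E14, an established mouse embryonic stem cell line, grown on gelatin in serum with leukemia inhibitory factor (LIF), with no treatment or genetic change named in the labels. Chromatin was fixed with 1% formaldehyde for 10 min and precipitated with 5 µg of an SSRP1 antibody. The labels name 2 SSRP1 ChIP samples and 2 inputs (unprecipitated chromatin), and the 1 peak list of each ChIP sample was analysed here. Separate cultures are not stated for the replicates, so differences between the lists may be technical. Neither list gives read totals, and RNA was not measured, so the labelled cell type was not checked against marker expression.

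SSRP1 and SUPT16H form FACT, a histone chaperone. FACT loosens the contacts of histones H2A and H2B ahead of RNA and DNA polymerases and helps to restore the nucleosome behind them, and it is often found along transcribed genes. Pou5f1 (also called Oct4), Sox2 and Nanog are the transcription factors at the core of the network that keeps embryonic stem cells undifferentiated. Klf4, a Krüppel-like factor, supports self-renewal downstream of LIF. Zfp42, also known as Rex1, encodes a zinc finger protein that is widely used as a marker of the undifferentiated state. Lncenc1 is a long noncoding RNA of embryonic stem cells, encoded next to the protein-coding gene Enc1.

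The DNA just before the start of transcription is shown for Zfp42 and Lncenc1, the genes with the most peaks, and for Klf4 and Pou5f1, the genes with the most and the least covered intervals in replicate 1. Each sequence is the 250 bases before the annotated start, 5′ to 3′ on the strand of the gene, from RefSeq on GRCm38.p6. Zfp42 and Klf4 lie on the minus strand and the other 2 on the plus strand. For Pou5f1 the first of 2 listed starts is shown. All 6 genes had an entry. Capitals mark matches on either strand to the TATA box TATAAA, the box named for its letters CCAAT, the GC box core GGGCGG, the octamer motif ATGCAAAT known from Oct factors, or the Krüppel-like factor motif CACCC. Because the peaks are on mm9, these sequences were not placed relative to them.
Zfp42: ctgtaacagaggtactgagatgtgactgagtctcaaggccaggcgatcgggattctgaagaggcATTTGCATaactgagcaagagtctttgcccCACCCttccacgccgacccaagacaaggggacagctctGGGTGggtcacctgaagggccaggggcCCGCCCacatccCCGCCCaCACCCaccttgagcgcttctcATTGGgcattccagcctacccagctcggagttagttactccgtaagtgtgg
Lncenc1: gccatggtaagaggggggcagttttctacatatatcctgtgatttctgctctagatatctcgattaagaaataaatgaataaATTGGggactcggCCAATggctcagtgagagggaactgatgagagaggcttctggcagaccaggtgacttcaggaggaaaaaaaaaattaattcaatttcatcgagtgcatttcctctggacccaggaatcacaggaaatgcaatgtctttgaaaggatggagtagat
Klf4: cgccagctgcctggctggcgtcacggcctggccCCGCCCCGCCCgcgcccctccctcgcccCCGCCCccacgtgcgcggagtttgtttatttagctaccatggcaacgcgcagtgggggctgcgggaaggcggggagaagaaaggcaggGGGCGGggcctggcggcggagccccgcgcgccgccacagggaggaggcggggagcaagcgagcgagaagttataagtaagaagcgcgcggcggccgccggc
Pou5f1: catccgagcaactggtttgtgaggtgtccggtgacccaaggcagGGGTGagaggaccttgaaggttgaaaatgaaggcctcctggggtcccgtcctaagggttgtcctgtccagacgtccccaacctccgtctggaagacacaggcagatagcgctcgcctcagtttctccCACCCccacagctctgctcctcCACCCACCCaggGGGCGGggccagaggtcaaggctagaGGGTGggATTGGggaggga

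The 4 promoters differed in base composition. The Klf4 promoter held 32 CG dinucleotides and was 74.0% G or C, and the Lncenc1 promoter held 3 and was 42.4% G or C. Zfp42 had 9 CG and Pou5f1 had 8, against a median of 6 over 32851 RefSeq promoter windows of the same length. The Zfp42 promoter carried ATGCAAAT, in reverse complement, which occurred in 1.6% of all promoters. GGGCGG matched 4 times in Klf4, 2 times in Zfp42 and once in Pou5f1, and 32.7% of all promoters held it. CACCC matched 5 times in Pou5f1 and 3 times in Zfp42, with 52.0% of all promoters holding it. It had no match in Klf4 or Lncenc1. Lncenc1 held 2 matches to CCAAT, Zfp42 and Pou5f1 1 each and Klf4 none, and 33.8% of all promoters held one. TATAAA matched in none of the 4 and occurred in 12.4% of all promoters. In Pou5f1, 2 of the CACCC matches overlap. In Klf4, 2 of the GGGCGG matches overlap. The Pou5f1 values are those of the start shown. Its second listed start had 6 CG and was 45.6% G or C, with 1 match to CCAAT and none to the other motifs. These matches are letters in a window and not measured binding.

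Of the 6 intervals, 5 held at least 1 peak found in both lists, and Pou5f1 held none. In replicate 1 the intervals held 20 peaks at Zfp42, 18 at Lncenc1, 7 at Klf4, 4 at Nanog, 2 at Sox2 and 0 at Pou5f1. In replicate 2 they held 16 at Zfp42, 14 at Lncenc1, 3 at Nanog, 3 at Sox2, 1 at Klf4 and 1 at Pou5f1. Zfp42 and Lncenc1 thus ranked first and second in each list and together held 38 of the 51 and 30 of the 38 peaks. The 6 intervals differ in length, from 8 kb for Sox2 to 50 kb for Lncenc1. Per 10 kb of interval, replicate 1 had 7 peaks at Klf4, 6.67 at Zfp42 and 3.6 at Lncenc1, and replicate 2 had 5.33 at Zfp42, 3.75 at Sox2 and 2.8 at Lncenc1.

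**Figure D1:**
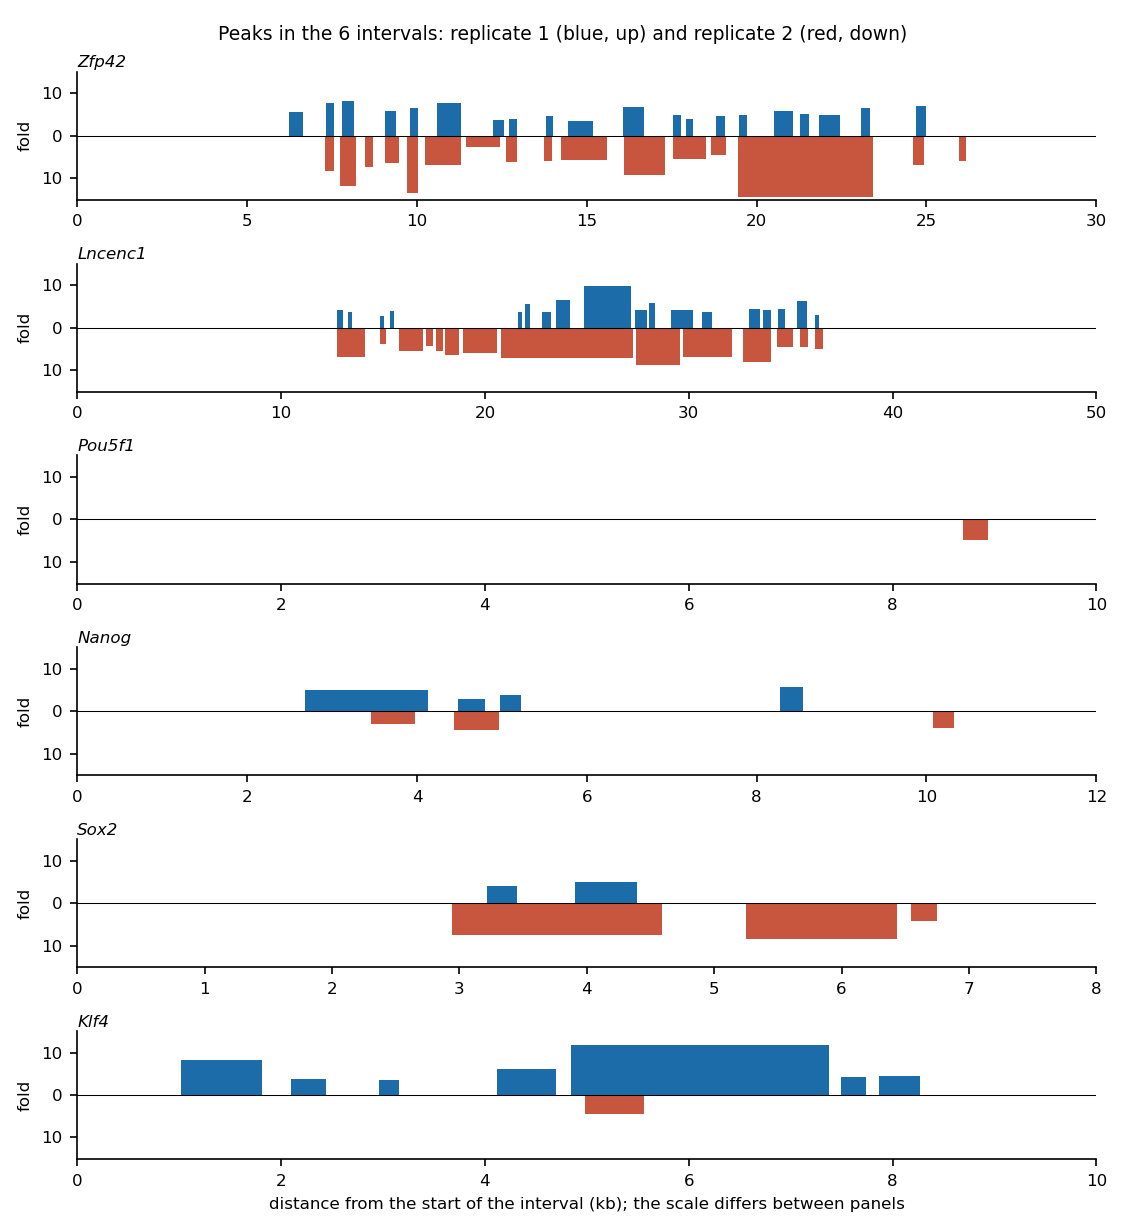
Peaks in each interval, with the distance from the interval's start in kb on the x axis and the authors' fold enrichment as bar height (replicate 1 in blue upward, replicate 2 in red downward). Each bar spans 1 peak. Both lists fill the middle of the Zfp42 and Lncenc1 intervals, the Klf4 interval is filled mostly in replicate 1, and Pou5f1 has a single peak, in replicate 2.

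Most members had a counterpart in the other list, mainly at Zfp42 and Lncenc1. Of the 51 peaks in replicate 1, 41 had an overlap of 1 bp or more with replicate 2 (80.4%, exact 95% binomial interval 66.9 to 90.2%), where the whole list had 27.7%. The 38 peaks in replicate 2 included 27 with such an overlap (71.1%, 54.1 to 84.6%), where the whole list had 54.9%. These intervals cover counting error only. Neighbouring peaks of a gene are not independent, and the genes were chosen with this overlap known, so nothing is read from these differences. Where the other list covers much of an interval, an overlap of 1 bp is easily met. By the stricter measure of summits within 200 bp of each other, 33.3% of replicate 1's members and 44.7% of replicate 2's had a partner, beside 20.2% and 43.2% of the whole lists.

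The total length under peaks was larger in replicate 2 within the intervals and larger in replicate 1 genome-wide. Over the 6 intervals replicate 1's peaks covered 24.7 kb and replicate 2's 37.9 kb, 1.54 times as much, whereas the whole list of replicate 1 covered 1.64 times as much as that of replicate 2 (2168 against 1321 kb). The direction was not the same for all genes. Replicate 2 covered more at Zfp42, Lncenc1, Sox2 and Pou5f1, and replicate 1 covered more at Klf4 and Nanog. Together the 2 lists covered 45.1 kb, of which 17.5 kb, or 38.7%, lay under peaks of both. Over the whole lists this share was 24.1%.

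**Figure D2:**
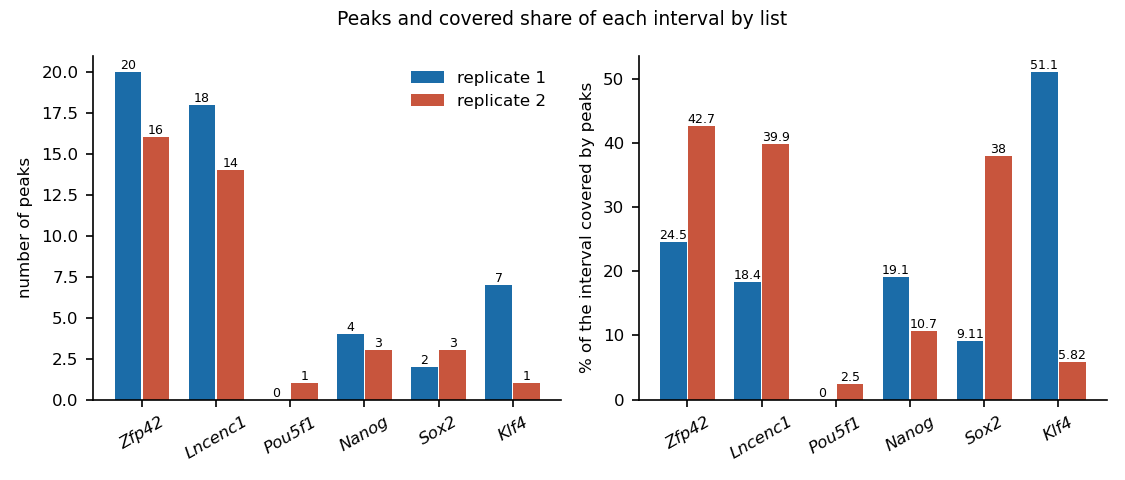
Number of peaks (left) and percent of the interval covered by peaks (right) for each gene, with replicate 1 in blue and replicate 2 in red and values above the bars. Zfp42 has 20 and 16 peaks covering 24.5% and 42.7% of its interval, while Klf4 goes from 51.1% in replicate 1 to 5.82% in replicate 2.

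Peaks of the members were of ordinary strength in replicate 1 and often wide in replicate 2. Their median fold enrichment at the summit was 4.68 in replicate 1, beside 4.57 in that list, and 5.95 in replicate 2, beside 5.45. Replicate 1's members had a median width of 322 bp, beside 301 bp in the list, and replicate 2's had 521.5 bp, beside 346 bp. Peaks of 1 kb or more made up 4 of 51 (7.84%) and 13 of 38 (34.2%), beside 5.53% and 12.3% of the lists. A −log10 q of 10 or more was reached by 14 peaks (27.5%) in replicate 1 and 17 (44.7%) in replicate 2, beside 19.7% and 30.6%. Each fold is relative to the local background of its own list, so a difference in fold between replicates is not a difference in the amount of SSRP1 bound.

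The depth at the members' summits was modest. Fragment numbers over a summit were recovered from the fold and the p-value of each peak. They ranged from 13 to 42 in replicate 1 (median 19, as in the whole list) and from 30 to 104 in replicate 2 (median 51, with 44 in the whole list). A fragment of replicate 2 counted as 0.416 after scaling. Each list was called separately, so this factor does not put the 2 lists on 1 scale. The fragment numbers are therefore not comparable between the lists. A peak missing from a list means that the locus did not pass that list's threshold, not that SSRP1 was absent.

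**Figure D3:**
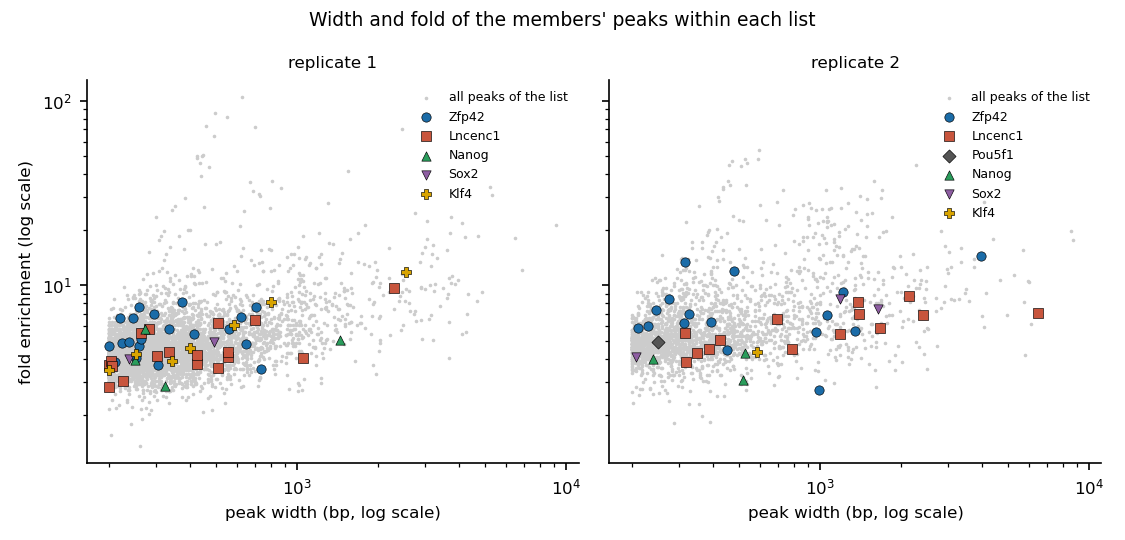
Peak width in bp (x axis, log scale) against the authors' fold enrichment (y axis, log scale) in replicate 1 (left) and replicate 2 (right), with all peaks of the list in grey and the members coloured by gene. No member of replicate 1 exceeds a fold of 11.9 and none of replicate 2 exceeds 14.4, and the members of replicate 2 include the peak of rank 3 by width in that list, at Lncenc1.

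The Zfp42 interval (mm9, chromosome 8, 44365000 to 44395000) held peaks spread over nearly the same stretch in both lists. In replicate 1 they reached from 44371227 to 44389978, a span of 18.8 kb, and in replicate 2 from 44372294 to 44391174, a span of 18.9 kb. The peaks covered 7.34 kb in replicate 1, 39.2% of their span, and 12.8 kb in replicate 2, 67.9% of it. Of replicate 1's 20 peaks 19 were shared (exact 95% binomial interval 75.1 to 99.9%), beside 27.7% of the whole list. Of replicate 2's 16 peaks 14 were (87.5%, 61.7 to 98.4%), beside 54.9% of the whole list. The binomial intervals of single genes also cover counting error only, since neighbouring peaks are not independent. Almost all of the length called in replicate 1, 91.1%, lay under peaks of replicate 2, and 52.2% of replicate 2's length lay under peaks of replicate 1. The unshared peaks sat near the edges in 2 of 3 cases. They were the first peak of replicate 1, the last of replicate 2 and 1 peak of replicate 2 at 44373464 to 44373708.

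Single peaks at Zfp42 differed in shape between the lists. The widest of replicate 2 ran from 44384448 to 44388431, was 3984 bp wide and also had the interval's highest fold, 14.4, over 104 fragments. It ranked 18th by width among the 2342 peaks of its list. Replicate 1 had 5 separate peaks within it, 238 to 645 bp wide, with folds from 4.81 to 6.65. The widest peak of replicate 1, at 44379461 to 44380193 (733 bp), was also its weakest, with a fold of 3.53. Replicate 1's strongest peak lay at 44372780 to 44373151 with a fold of 8.10 over 27 fragments, and its partner in replicate 2 had a fold of 12.0 over 86 fragments. Their summits were 4 bp apart. The weakest in replicate 2, at 44376452 to 44377443, had a fold of 2.70 although 56 fragments lay over its summit. Its local background of 8, on the scale where 1 fragment counts as 0.416, was the highest among replicate 2's members.

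Fold values at Zfp42 were mostly above the middle of each list. In replicate 1 16 of 20 peaks, and in replicate 2 14 of 16, had at least the median fold of their list. The range was 3.53 to 8.10 in replicate 1 (median 5.32) and 2.70 to 14.4 in replicate 2 (median 6.65). Peaks followed each other closely, with a median gap of 620 bp between those of replicate 1, beside 252 bp in replicate 2. The widest gap lay at the same place in both lists, from 44388333 to 44389684 (1352 bp) in replicate 1 and from 44388432 to 44389614 (1183 bp) in replicate 2. A peak shared by both lists followed it. No further peak lay close to the interval on either side, though the usual spacing of peaks in the lists was not measured. Klf4 likewise had no peak for 1270 kb after its interval in replicate 1. The nearest peaks outside the Zfp42 interval were 2040 kb before and 1630 kb after it in replicate 1, and farther away in replicate 2.

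The Lncenc1 interval (chromosome 13, 98240000 to 98290000) showed the same outer limits in both lists, with more of the space between them filled in replicate 2. The first peak began at 98252728 in replicate 1 and 98252733 in replicate 2, and the last ended at 98276406 and 98276612. Within these spans of 23.7 and 23.9 kb, peaks covered 9.22 kb (38.9%) in replicate 1 and 19.9 kb (83.5%) in replicate 2. Of replicate 1's 18 peaks 17 were shared (94.4%, exact 95% binomial interval 72.7 to 99.9%), and 93.6% of their length lay under peaks of replicate 2. Of replicate 2's 14 peaks 9 were shared (64.3%, 35.1 to 87.2%), with 43.3% of their length under peaks of replicate 1. Of all peaks, 27.7% in replicate 1 and 54.9% in replicate 2 were shared.

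All 5 unshared peaks of replicate 2 at Lncenc1 fell into 1 gap of replicate 1. That gap ran from 98255540 to 98261629 and was 6.09 kb long. Replicate 2's 5 peaks there covered 4.21 kb, with folds from 4.30 to 6.55 over 42 to 51 fragments. The widest peak of replicate 2 began just before the end of this gap. It ran from 98260802 to 98267284, was 6483 bp wide and ranked 3rd by width in its list, with a fold of 7.11 over 83 fragments. It contained 5 peaks of replicate 1, of which the last, at 98264877 to 98267160, was replicate 1's widest here (2284 bp) and its strongest (fold 9.72 over 42 fragments). The highest fold of replicate 2, 8.74, belonged to the next peak, at 98267435 to 98269569.

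At Lncenc1 the peaks of replicate 2 were wide, and folds were mostly below the list median in replicate 1 and mostly at or above it in replicate 2. Replicate 1's peaks had a median width of 379.5 bp and replicate 2's of 990 bp, and 7 of 14 peaks in replicate 2 were 1 kb or wider. In replicate 1 13 of 18 peaks had a fold below the list's median, with a range of 2.82 to 9.72 (median 4.12). In replicate 2, 9 of 14 peaks had at least the list's median fold, with a range of 3.86 to 8.74 (median 5.72). The weakest peaks of the lists overlapped each other, at 98254850 to 98255049 in replicate 1 (fold 2.82) and 98254841 to 98255159 in replicate 2 (fold 3.86). No peak outside the interval lay nearer than 206 kb in replicate 1 or 299 kb in replicate 2.

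Joined into chains, the Zfp42 and Lncenc1 peaks were among the longest stretches of replicate 2, and those of Zfp42 also of replicate 1. A chain here is a run of peaks of 1 list separated by gaps of up to 1 kb. In replicate 2 only 3 of 1689 chains reached 10 kb, and 2 of these were Lncenc1 with 23.9 kb and 14 peaks and Zfp42 with 16.1 kb and 14 peaks. The longest of that list measured 26.3 kb. In replicate 1 the Zfp42 chain ranked 3rd of 3838, with 17.1 kb and 19 peaks. Peaks covered 41.2% of that chain, and by covered length it ranked 21st. The Zfp42 chain of replicate 2 was 76.0% covered and ranked 3rd by either measure. Lncenc1 split in replicate 1 into 4 chains, the longest of 9.53 kb ranking 16th by length. These ranks rest on the same peaks on which the genes were chosen.

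Replicate 1's chains at both genes depended on the gap allowed. With gaps of up to 500 bp, a setting added after the values had been seen, its longest chain at Zfp42 measured 1.96 kb and ranked 168th of 4195. Its longest at Lncenc1 then measured 3.48 kb and ranked 75th, and with gaps of up to 2000 bp it measured 14.8 kb and ranked 9th. In replicate 2 gaps of up to 500 bp left 9.68 kb at Zfp42, again ranked 3rd, and 16.3 kb at Lncenc1, the longest of the list.

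**Figure D4:**
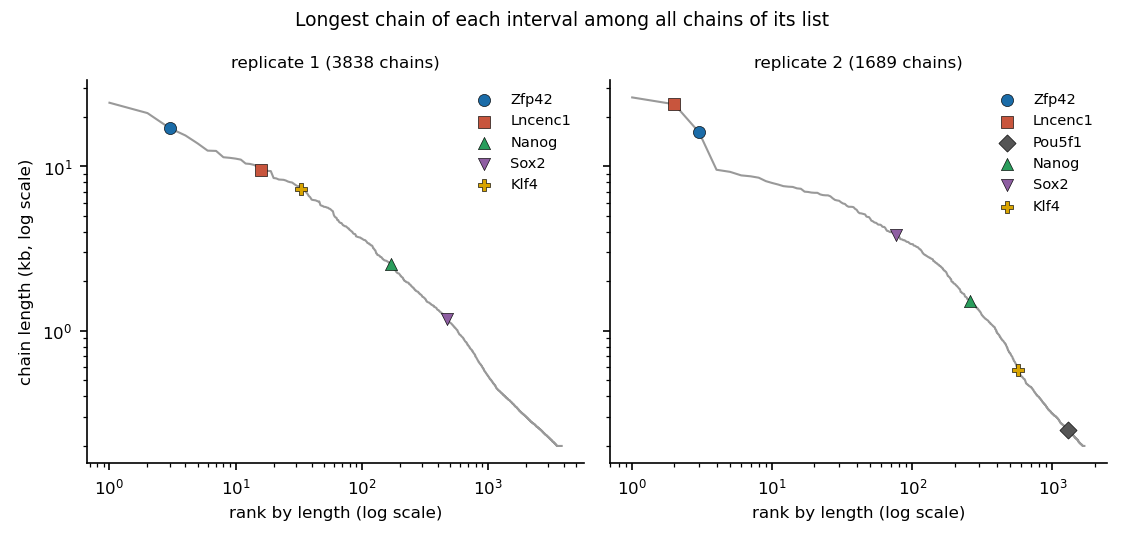
Length in kb (y axis, log scale) of every chain of peaks against its rank (x axis, log scale) in replicate 1 (left) and replicate 2 (right), as a grey line, with the longest chain of each interval marked. Lncenc1 (23.9 kb) and Zfp42 (16.1 kb) have ranks 2 and 3 in replicate 2, and Klf4 goes from rank 33 in replicate 1 to 570 in replicate 2.

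Of the core transcription factor genes, Sox2 had the larger SSRP1 coverage in replicate 2. Its interval (chromosome 3, 34546000 to 34554000) held 2 peaks in replicate 1, at 34549219 to 34549455 (fold 4.01 over 17 fragments) and 34549904 to 34550395 (fold 4.94 over 21 fragments). Both lay wholly within 1 peak of replicate 2, at 34548942 to 34550591, which was 1650 bp wide with a fold of 7.46 over 56 fragments. Replicate 2 had 2 more peaks downstream on the chromosome, at 34551253 to 34552437 (1185 bp, fold 8.48 over 62 fragments) and 34552547 to 34552753 (fold 4.10 over 37 fragments). The strongest Sox2 peak of replicate 2 was therefore without a partner, 857 bp from the nearest peak of replicate 1. Covered length was 0.729 kb in replicate 1 and 3.04 kb in replicate 2, 4.17 times as much.

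Nanog carried peaks in both lists that matched in part. Its interval (chromosome 6, 122655000 to 122667000) held 4 peaks in replicate 1. The widest, at 122657680 to 122659127 (1448 bp), had a fold of 5.05 over 33 fragments and overlapped a peak of replicate 2 at 122658454 to 122658971 (fold 3.08 over 42 fragments). The next, at 122659483 to 122659804 (fold 2.87 over 16 fragments), lay within a peak of replicate 2 at 122659441 to 122659965 (fold 4.31 over 39 fragments). Summits in these pairs were 322 and 256 bp apart, so neither pair met the 200 bp measure.

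The other Nanog peaks were found in 1 list each. Replicate 1 had one at 122659978 to 122660227 (fold 3.97 over 15 fragments), 12 bp from a peak of replicate 2, and one at 122663272 to 122663544 (fold 5.82 over 22 fragments). Replicate 2 had one at 122665081 to 122665320 (fold 3.99 over 34 fragments), 1536 bp beyond the last. Covered length was 2.29 kb in replicate 1 and 1.28 kb in replicate 2. In replicate 1, 2 of the 4 Nanog peaks had at least the list's median fold, and in replicate 2 all 3 were below it.

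Within the fixed intervals, no gene had fewer peaks than Pou5f1 in either list. With all intervals extended by 10 kb this no longer held in replicate 2. The Pou5f1 interval (chromosome 17, 35640000 to 35650000) held no peak in replicate 1. It held a single 250 bp peak in replicate 2, at 35648688 to 35648937, with a fold of 4.93 over 34 fragments. That peak covered 2.5% of the interval and lay near its far end. The nearest peak of replicate 1 was over 248 kb outside the interval.

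Klf4 had the larger covered length in replicate 1, the reverse of Sox2, and nearly all of its peaks were in that list. Its interval (chromosome 4, 55538000 to 55548000) held 7 peaks in replicate 1, which covered 5.11 kb or 51.1% of it, the highest share of any interval in that list. Only 1 peak was listed in replicate 2, covering 0.582 kb, which makes the length in replicate 1 8.78 times as large. The widest peak of replicate 1, at 55542845 to 55545379 (2535 bp), was also the strongest of all members in that list, with a fold of 11.9 over 42 fragments, and ranked 57th by width and 120th by fold among 5011 peaks. It overlapped the peak of replicate 2, at 55542985 to 55543566, whose fold was 4.39 over 30 fragments. The summits of this pair were 1559 bp apart.

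The other 6 peaks at Klf4 in replicate 1 had no partner. Their folds ranged from 3.51, at 55540957 to 55541156, to 8.18 over 42 fragments, at 55539017 to 55539814. The latter had a −log10 q of 23.15. Of replicate 1's 10 unshared members 6 were at Klf4. The interval's shared fraction was 14.3% (exact 95% binomial interval 0.361 to 57.9%), beside 27.7% of the whole list. Coverage of the interval was thus above that of Zfp42 in replicate 1 (24.5%), and in replicate 2 only Pou5f1 had less (2.5%).

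**Figure D5:**
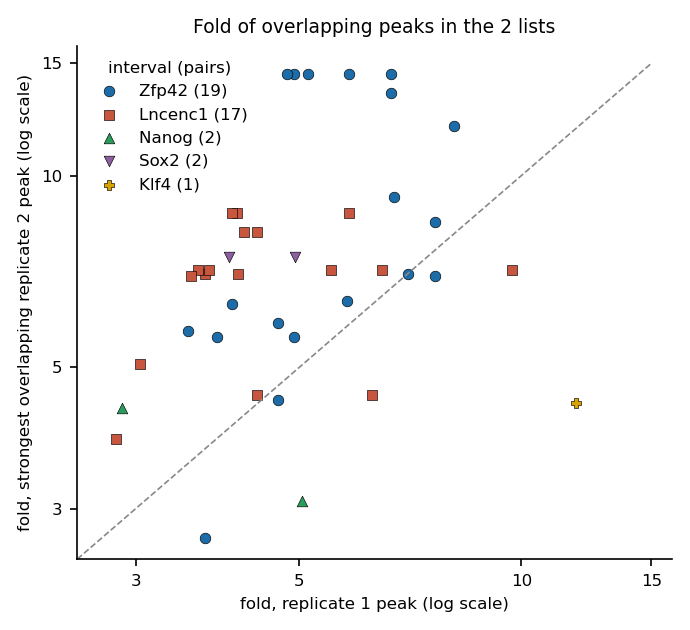
Fold enrichment of each shared peak of replicate 1 (x axis, log scale) against that of its strongest overlapping peak in replicate 2 (y axis, log scale), coloured by gene, with equality as a dashed line. Of 41 pairs 34 lie above the line, and the points in a row at a fold of 14.4 are 5 peaks at Zfp42 that share 1 partner; Klf4 (11.9 and 4.39) lies farthest below.

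Paired by overlap, the shared members mostly had the higher fold in replicate 2, as did shared peaks of the whole lists. This held for 34 of 41 peaks of replicate 1 set beside their strongest partner (82.9%), where all 1386 shared peaks of that list had 67.2%. Nothing is read from the difference between these shares. The 34 were 16 of 19 at Zfp42, 15 of 17 at Lncenc1, both at Sox2, 1 of 2 at Nanog and 0 of 1 at Klf4. The 41 peaks had only 27 distinct partners, so several pairs share a value. A wide peak of replicate 2 lent its summit fold to every replicate 1 peak it overlapped, which favours replicate 2 in these counts and medians. In 1 of the Zfp42 pairs the folds were 7.015 in both lists to 3 decimals. At Zfp42 the median fold in these pairs was 5.14 in replicate 1 and 7.01 in replicate 2, and at Lncenc1 it was 4.13 and 7.11. The 7.11 is the fold of 1 peak of replicate 2 entered 5 times, with its summit 266 to 4150 bp from those of its partners. Summits matched better at Zfp42, with a median distance of 143 bp and 8 of 19 pairs within 100 bp, than at Lncenc1, with 527 bp and 4 of 17. The wide peaks of replicate 2, each with a single summit, enter these distances.

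Peaks just outside the intervals show what the fixed limits left out. At Pou5f1 replicate 2 had 4 more peaks within 10 kb after the interval, the first 533 bp beyond its end at 35650533 to 35650832 (fold 3.28) and the last ending at 35653693, with folds up to 5.39. None was shared. In the order of the RefSeq table the next protein-coding gene after Pou5f1 is Tcf19. At Sox2 replicate 2 had a peak 321 bp beyond the end, at 34554321 to 34554585 (fold 4.63). At Nanog both lists had a peak 9.10 and 9.93 kb beyond the end, 3765 bp wide with a fold of 11.2 in replicate 1 and 820 bp wide with a fold of 5.16 in replicate 2. The next protein-coding gene in table order there is Slc2a3, which encodes a glucose transporter. Neither Zfp42, Lncenc1 nor Klf4 had a further peak within 10 kb. No peak of either list crossed an interval's end.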

How the data were processed

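SSRP1 ChIP-seq of E14 cells was deposited as 1 MACS2-style peak list per ChIP sample, each called separately, as the peak names show. STAR, MACS2, deepTools and mm9 are named in the submitters' processing notes. For these, roles, settings and versions were not given in the sources used here. Per the file layout, the deposited columns hold the authors' fold enrichment (a ratio to the local background), −log10 p, −log10 q and a score. The deposited score, 10 times the −log10 q, was not used. The largest q-value listed was 0.0471 in replicate 1 and 0.0331 in replicate 2. Inputs had no file here.

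The 6 intervals were taken as given, with positions counted from 1. Members and gene lists were chosen with earlier results of these data known. Every interval is described. Peaks given singly are the widest, strongest and weakest per list, all where a list has 4 or fewer, and unshared or flanking peaks chosen after their values were seen. Shared means an overlap of 1 bp or more, and binomial intervals are exact (Clopper-Pearson, 95%). Chains bridge gaps of up to 1 kb. Fragments were solved from fold = (pileup + 1) / (background + 1) and the Poisson p-value, as MACS2 computes them. All peaks of both lists came out whole within 0.01 fragments, with 1 fragment worth 1 in replicate 1 and 0.416 in replicate 2. Procedures were tested on simulated data. Python 3.11.15, pandas 2.3.3, numpy 2.4.6, scipy 1.17.1 and matplotlib 3.10.9 were used. An mm9 annotation was not used, so exons, introns and UTRs are not stated, and a planned count over other pluripotency genes was not made. The RefSeq tables (GRCm38.p6) gave names, gene order and promoter sequence only.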

Additional observations from a re-analysis of the deposited data

How the results depend on the processing

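Peak counts, covered lengths and shared parts all depended on how peaks were listed and matched. With −log10 q of 5 or more replicate 1 kept 27 of its 51 peaks in the intervals, covering 16.01 kb instead of 24.7 kb, the shared part of replicate 2's peaks was 53.8%, and 3 intervals instead of 5 held a shared peak. With 10 or more there were 14 and 17 peaks covering 11.3 and 24.9 kb, 47.1% of replicate 2's were shared, and 2 intervals held a shared peak, Zfp42 and Lncenc1. Merging across 1 kb left 10 and 9 regions. With summits within 200 bp, 33.3% and 44.7% were shared and 3 intervals held a shared peak. With an overlap of at least 50% of the narrower peak the shares hardly changed. They were 78.43% and 71.05%, beside 26.4% and 52.8% of the whole lists, and 5 intervals held a shared peak. Cutting replicate 1's list to the length of replicate 2's, an alternative chosen after seeing the data, left 26 peaks covering 15.8 kb, and 44.7% of replicate 2's were shared. The shared part of replicate 1's peaks stayed within its binomial interval under the stricter q and this cut. It was 74.1% with −log10 q of 5 or more, 71.4% with 10 or more and 84.6% with the cut list. The same shares over all peaks of the lists were not computed for the stricter q or the cut list. Nothing about the members is therefore read from these changes. Fewer or merged peaks follow from these settings by construction. Extending the intervals by 10 kb, and taking only peaks wholly inside them, left each of these summaries within 1.5 times or within its error. Counting intervals with a peak in either list gave 6, and 5 to 6 with 1 replicate left out, the lower without replicate 2. Of 132 recomputed peak counts and covered lengths of single intervals, 46 changed by over 1.5 times, 14 of them to 0, all 14 with a stricter −log10 q. The extension by 10 kb changed 4 of 24 such values by over 1.5 times. These were the peaks and covered length of Pou5f1 in replicate 2, and the covered length of Nanog in each list (to 6.06 and 2.10 kb). Of 22 chain ranks, recomputed with gaps of 500 and 2000 bp after seeing the data, 8 changed by over 1.5 times. No paired analysis was possible because the only groups sharing replicate numbers are ChIP and input, and no input values were analysed. With 1 list per replicate, and as few as 13 (replicate 1) or 30 (replicate 2) fragments over a summit, weaker sites can go unlisted.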
